A study of Homo sapiens with 2 samples.

Results

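Metallothioneins and zinc handling were examined as 9 genes: the metallothionein genes MT2A, MT1X, MT1E, MT1F, MT1G and MT1M, the zinc-sensing transcription factor gene MTF1, the zinc exporter gene SLC30A1 and the zinc importer gene SLC39A10. They were taken as the rows of the deposited transcript table whose gene name equals one of these symbols. Of the 9 genes, 8 had rows, 28 transcripts of the 134092 listed, and 7 reached at least 1 RPKM (reads scaled to the length of the transcript and the depth of the library) in either library, as did 12471 of the 24124 genes in the table. All cells were of the oral cancer line SAS, which is an established human line. The ASC cells stably carried pLKO.AS2_ASC, a lentiviral vector with the sequence of ASC, the inflammasome adaptor protein encoded by PYCARD, and the control cells carried pLKO.AS2 without it. Both were grown in DMEM with 10% FBS, with G418 at 200 µg/ml and puromycin at 2 µg/ml, and whether either line was 1 clone or a pool is not given in the sources used here.

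Each condition had 1 RNA-seq library, so the differences below were not checked by replicates and none was tested. The ASC library held 31426491 listed reads and the control library 31289581. PYCARD stood at 266.5 RPKM in ASC cells and 1.36 RPKM in control cells, the direction the labels give. The epithelial markers KRT5, KRT14, TP63, EPCAM and CDH1 lay between 46.0 and 311.0 RPKM in ASC cells and between 54.5 and 421.0 RPKM in control cells. The blood, endothelial and fibroblast markers PTPRC, PECAM1 and COL1A1 stood at 0.0542, 0.0205 and 0.353 RPKM in ASC cells and at 0, 0.0581 and 0.0941 RPKM in control cells. Beside the RPKM values, the log2 ratio of depth-scaled reads, ASC over control, is given with its 95% exact (Clopper-Pearson) interval in brackets. These intervals cover counting error only, since sequenced reads are not independent molecules and reads split between similar transcripts carry further error.

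Metallothioneins are small proteins whose cysteines hold zinc and copper ions, so they buffer free metal and take up excess zinc or cadmium. Free zinc activates MTF1, which binds metal response elements in the promoters of metallothionein genes and of SLC30A1. The SLC30A1 protein carries zinc out of the cell across the plasma membrane, SLC39A10 carries it in, and in zebrafish and mouse cells transcription of Slc39a10 is held down by MTF1 when zinc is plentiful. Metallothionein genes are also induced by glucocorticoids, oxidants and cytokines.

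The coding sequences of the 4 metallothionein members with reads in both libraries show what the family shares. They are given 5′ to 3′ from the GENCODE 29 transcript with the most reads, on the plus strand of GRCh38 with introns left out, with the in-frame cysteine codons TGC and TGT in capitals. In genome coordinates they run from start codon to stop codon over chr16:56608656-56609354 (MT2A), chr16:56682541-56684049 (MT1X), chr16:56625852-56626971 (MT1E) and chr16:56658059-56659164 (MT1F).
MT2A: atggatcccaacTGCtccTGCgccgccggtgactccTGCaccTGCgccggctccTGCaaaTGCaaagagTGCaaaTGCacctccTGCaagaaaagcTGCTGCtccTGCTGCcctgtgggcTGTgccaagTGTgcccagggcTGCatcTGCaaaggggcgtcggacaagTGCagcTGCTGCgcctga
MT1X: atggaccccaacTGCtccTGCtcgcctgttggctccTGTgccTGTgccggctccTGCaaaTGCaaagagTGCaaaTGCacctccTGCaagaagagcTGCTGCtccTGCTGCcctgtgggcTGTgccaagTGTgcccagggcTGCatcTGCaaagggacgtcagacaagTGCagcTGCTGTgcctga
MT1E: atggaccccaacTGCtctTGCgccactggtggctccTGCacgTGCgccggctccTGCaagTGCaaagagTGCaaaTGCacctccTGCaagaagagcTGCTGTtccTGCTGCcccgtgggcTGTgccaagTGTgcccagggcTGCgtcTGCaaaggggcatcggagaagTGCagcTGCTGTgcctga
MT1F: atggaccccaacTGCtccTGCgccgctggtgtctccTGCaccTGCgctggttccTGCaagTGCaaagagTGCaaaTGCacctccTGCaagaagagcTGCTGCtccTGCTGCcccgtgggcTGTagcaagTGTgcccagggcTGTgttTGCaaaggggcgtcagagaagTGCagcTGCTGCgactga
Each of these had 186 coding bases and 20 cysteine codons among 61 codons before the stop, 32.8% of them. The coding sequences of MT1G and MT1M also held 20 cysteine codons, and in all 15 pairs of the 6 genes the 20 cysteine codons aligned with each other. Coding identity within these pairs ranged from 88.7% to 93.7%. Identical stretches were counted between the main transcripts of MT2A, MT1E, MT1F, MT1X, MT1G, MT1M and the pseudogene MT1L. Of the 50-base stretches of MT2A, 2.17% also occurred in another of these transcripts, against 11.7% of those of MT1X, 0.458% of those of MT1E, 3.59% of those of MT1F and 16.9% of those of MT1G, most of which were shared with MT1X. No stretch of 100 bases was shared by any of them. The read length is not given in the sources used here, so how far reads were split between the copies was not tested.

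Promoters are shown for MT2A, MT1X and SLC30A1 because metal response elements are the sites through which MTF1 acts, and the core letters can be counted. The set of RefSeq promoters used, on GRCh38.p14, held 5 of the 9 members. MT1E, MT1F, MT1G and MT1M had no promoter entry in it, so their cores were not counted. Each sequence is the 250 bases before the RefSeq start, written 5′ to 3′ on the strand of the gene, with matches to the metal response element cores TGCACNC and TGCGCNC on either strand in capitals. The windows are chr16:56608334-56608583 on the plus strand for MT2A, chr16:56682220-56682469 on the plus strand for MT1X and chr1:211579162-211579411 on the minus strand for SLC30A1.
MT2A: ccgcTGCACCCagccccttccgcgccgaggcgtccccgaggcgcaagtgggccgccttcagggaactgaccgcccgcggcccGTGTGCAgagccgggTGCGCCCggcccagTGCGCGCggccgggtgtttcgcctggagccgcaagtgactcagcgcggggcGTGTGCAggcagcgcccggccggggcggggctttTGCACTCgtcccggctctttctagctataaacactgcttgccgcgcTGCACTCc
MT1X: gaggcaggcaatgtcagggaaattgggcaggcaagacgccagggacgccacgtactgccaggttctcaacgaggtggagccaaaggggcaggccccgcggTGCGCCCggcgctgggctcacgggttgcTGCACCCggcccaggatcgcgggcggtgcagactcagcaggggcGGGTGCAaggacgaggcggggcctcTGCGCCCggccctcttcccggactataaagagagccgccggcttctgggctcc
SLC30A1: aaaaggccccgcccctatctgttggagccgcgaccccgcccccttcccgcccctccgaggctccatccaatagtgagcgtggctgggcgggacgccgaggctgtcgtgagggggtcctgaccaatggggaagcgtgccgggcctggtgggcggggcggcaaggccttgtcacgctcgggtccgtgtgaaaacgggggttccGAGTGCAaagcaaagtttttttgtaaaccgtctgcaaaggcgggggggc
The MT2A window held 7 cores, 5 of TGCACNC and 2 of TGCGCNC, the first starting 246 bases before the start and the last ending 2 bases before it. Of 35116 promoter windows of this length, 0.0313% held as many. The MT1X window held 4 cores, 2 of each kind, and 0.37% of windows held as many. The SLC30A1 window held 1 core, and 24.8% of windows held at least 1. The transcript row of SLC30A1 begins further downstream, at chr1:211578742 on the minus strand, so this window does not lie directly before that row. The window of MTF1 and both windows of SLC39A10 held none. The letters TATAAA occurred in the windows of MT2A and MT1X and in 6.8% of all windows, and not in those of SLC30A1, MTF1 or SLC39A10. A match shows only that the letters are there, and binding was not measured.

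Metallothionein RNA was higher in ASC cells. Summed over the family (the functional MT1 genes and MT2A, of which 6 of 10 had rows), it stood at 2025 RPKM in ASC cells and 1357 RPKM in control cells. The sum of estimated reads was 53066 in ASC cells, 0.169% of the listed reads, and 35623 in control cells, 0.114% of them. The log2 ratio of depth-scaled reads was 0.57 (0.55 to 0.59). The log2 ratio on the log2(RPKM + 1) scale was 0.58, and "log2 ratio" below means this scale unless reads are named. Leaving out MT2A, the rest of the family sum stood at 428.4 RPKM in ASC cells and 296.1 RPKM in control cells. Its log2 ratio was 0.53. In bulk RNA, more cells with a transcript and more of it per cell cannot be told apart.

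**Figure D1:**
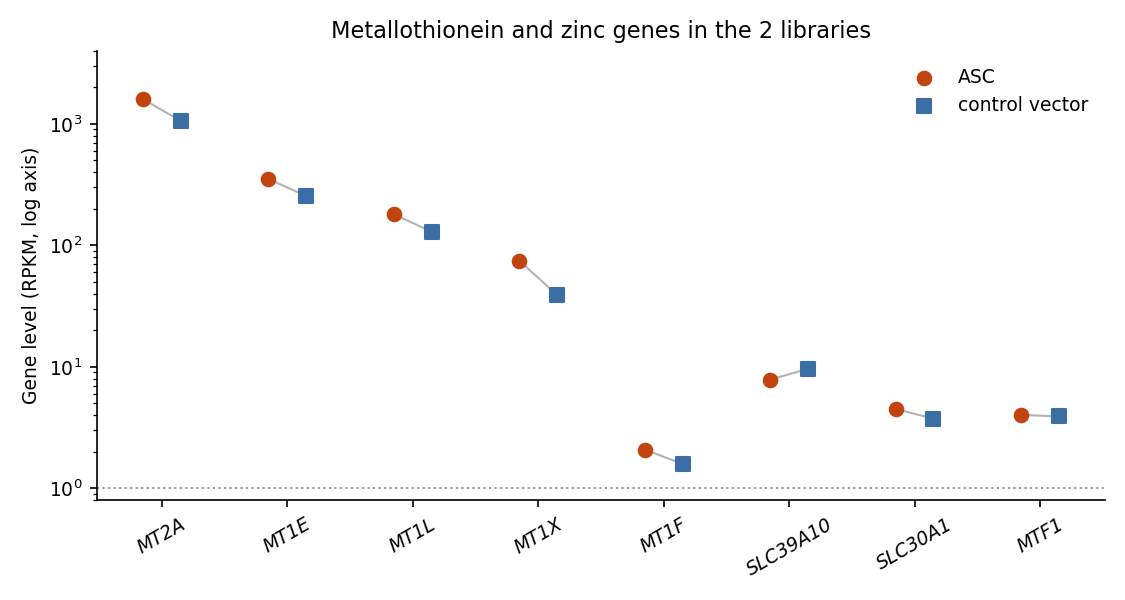
Level of each gene in RPKM on a log axis, with the ASC library as circles and the control vector library as squares, 1 library each, and a dotted line at 1 RPKM. MT2A (1596 RPKM in ASC cells against 1061 in control cells), MT1E, MT1L, MT1X, MT1F and SLC30A1 lie higher in ASC cells, SLC39A10 (7.87 RPKM in ASC cells against 9.63 in control cells) lies lower, and MTF1 is nearly level.

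MT2A, the main metallothionein of most human tissues, made up most of the family. It stood at 1596 RPKM in ASC cells and 1061 RPKM in control cells, with 43885 estimated reads in ASC cells and 29339 in control cells. In reads the log2 ratio was 0.57 (0.55 to 0.60), and the log2 ratio of 0.59 ranked 292 of the 12471 compared genes from the highest. Its share of the family sum was alike, 78.8% of RPKM in ASC cells and 78.2% in control cells. MT2A (ENSG00000125148.6) spans chr16:56608199-56609497 on the plus strand in hg38.

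MT1X had the highest ratio of the members. It stood at 74.7 RPKM in ASC cells and 39.1 RPKM in control cells, with 1256 estimated reads in ASC cells and 668 in control cells. This was a 1.91-fold difference in RPKM. The log2 ratio of reads was 0.90 (0.77 to 1.04), an interval that lies above that of MT2A. Its log2 ratio of 0.92 ranked 94 of 12471, and its share of the family RPKM was 3.69% in ASC cells and 2.88% in control cells. MT1X (ENSG00000187193.8) spans chr16:56682424-56684196 on the plus strand.

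MT1E was the second most abundant member. It stood at 351.5 RPKM in ASC cells and 255.3 RPKM in control cells, with 7872 reads in ASC cells and 5575 in control cells. Its log2 ratio was 0.46, at rank 518. In reads the log2 ratio, 0.49 (0.44 to 0.54), had an interval below that of MT2A. For its main form MT1E-201 alone it was 0.56 (0.50 to 0.61), an interval that overlaps that of MT2A. The share of MT1E in the family RPKM was 17.4% in ASC cells and 18.8% in control cells. MT1E (ENSG00000169715.14) spans chr16:56625475-56627112 on the plus strand.

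The remaining metallothionein members were low or without reads. MT1F stood at 2.08 RPKM in ASC cells (52 reads) and 1.59 RPKM in control cells (40 reads), and its log2 ratio of reads, 0.37 (-0.25 to 1.004), could not be told from 0 at this depth. MT1F (ENSG00000198417.6) spans chr16:56657694-56660698 in GENCODE 29 on the plus strand, between MT1E and MT1X. MT1G (ENSG00000125144.13), at chr16:56666731-56668065 on the minus strand, had rows but less than 1 read in either library. A count of 0 allows up to 3 reads, or 0.208 RPKM in ASC cells and 0.207 RPKM in control cells for a transcript of 405 bases. MT1M had no row in the table, so its level was not analysed here.

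**Figure D2:**
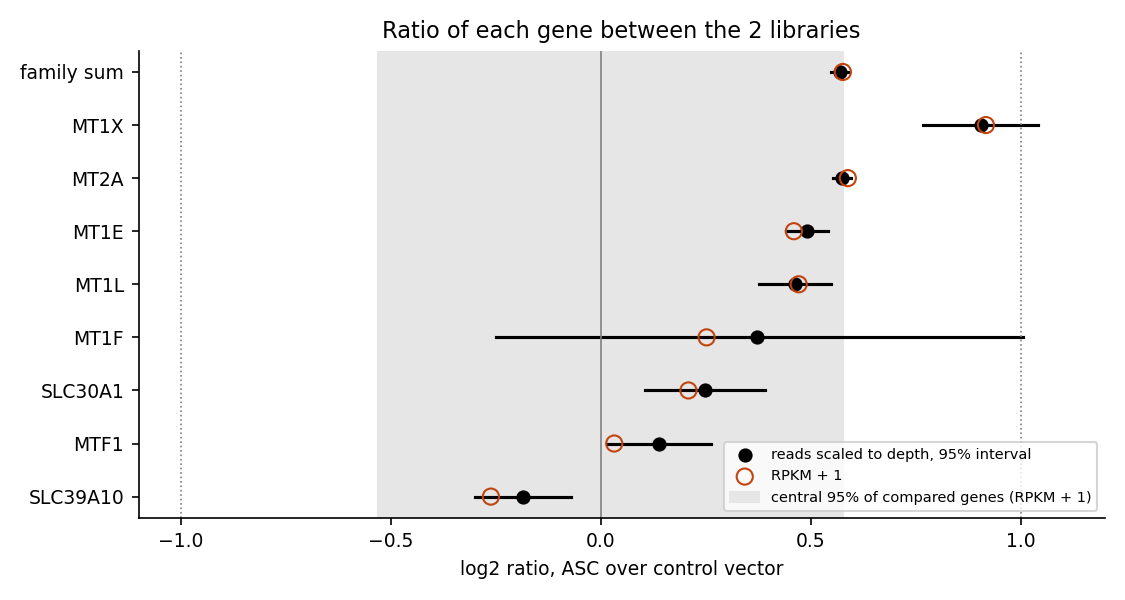
log2 ratio of the ASC over the control vector library for the family sum and each gene, 1 library per group: filled points are reads scaled to depth with 95% exact counting intervals, open circles the ratio of RPKM + 1, and the grey band the central 95% of compared genes (-0.53 to 0.58). MT1X at 0.92 lies right of the band, MT2A at 0.59 at its edge, and the interval of MT1F crosses 0.

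Of the 7 compared members, none was at least 2-fold higher or lower, where 0.617% of all compared genes were 2-fold higher and 0.265% were 2-fold lower (0.882% in either direction). At least 1.5-fold higher were 2 of the 7, MT1X and MT2A, where 2.38% of all compared genes were, and none was 1.5-fold lower, where 1.81% were (4.19% in either direction). MT2A lay at the 1.5-fold threshold: its log2 ratio was 0.58 after centring on the median of all genes, 0.58 with TMM scaling and 0.57 with counts scaled to depth only, each just short of it. The members' median log2 ratio was 0.25, and that of all compared genes 0.01, with 6 members above 0 and 1 below, where 52.0% of all compared genes lay above 0. Counts past a fold here are on the RPKM + 1 scale. These members were chosen with earlier results of these libraries known, so their counts describe the libraries and support nothing further.

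Transcript rows showed the same direction for nearly all metallothionein forms with reads. MT2A-201, the longer of 2 protein-coding forms, held 89.9% of MT2A reads in ASC cells, at 1408 RPKM, and 90.2% in control cells, at 940.5 RPKM. The other coding form, MT2A-202, stood at 49.7 RPKM in ASC cells and 30.04 RPKM in control cells, and the noncoding MT2A-204 at 127.1 RPKM in ASC cells and 84.5 RPKM in control cells. The minor noncoding form MT2A-205 stood at 5.46 RPKM in ASC cells (81.0 estimated reads) and 0.954 RPKM in control cells (14.2 estimated reads), a larger ratio on few reads. MT1X-201 held 90.8% of MT1X reads in ASC cells, at 71.1 RPKM, and 88.6% in control cells, at 36.8 RPKM. MT1X-202 went the other way, with 0.0965 estimated reads in ASC cells and 7.93 in control cells. Among the 3 coding forms of MT1E, MT1E-201 stood at 264.7 RPKM in ASC cells and 178.7 RPKM in control cells, while MT1E-203 was closer, at 72.7 RPKM in ASC cells and 65.1 RPKM in control cells. Their log2 ratios of reads were 0.56 (0.50 to 0.61) for MT1E-201 and 0.15 (0.01 to 0.29) for MT1E-203. The interval of each form leaves out error in assigning reads among forms that overlap.

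The annotated starts bear on these levels. The main transcript row of MT2A begins 385 bases before the RefSeq start of the gene and is 786 bases long, so its first exon covers the promoter window shown above. That of MT1E begins 306 bases before it and is 704 bases long. The main row of MT1F begins 265 bases before the RefSeq start, and that of MT1X 46 bases before it. RPKM divides by the annotated length, so levels of different metallothionein genes depend on which start the cells use, while the ratio of reads between the libraries for 1 transcript does not depend on its length.

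**Figure D3:**
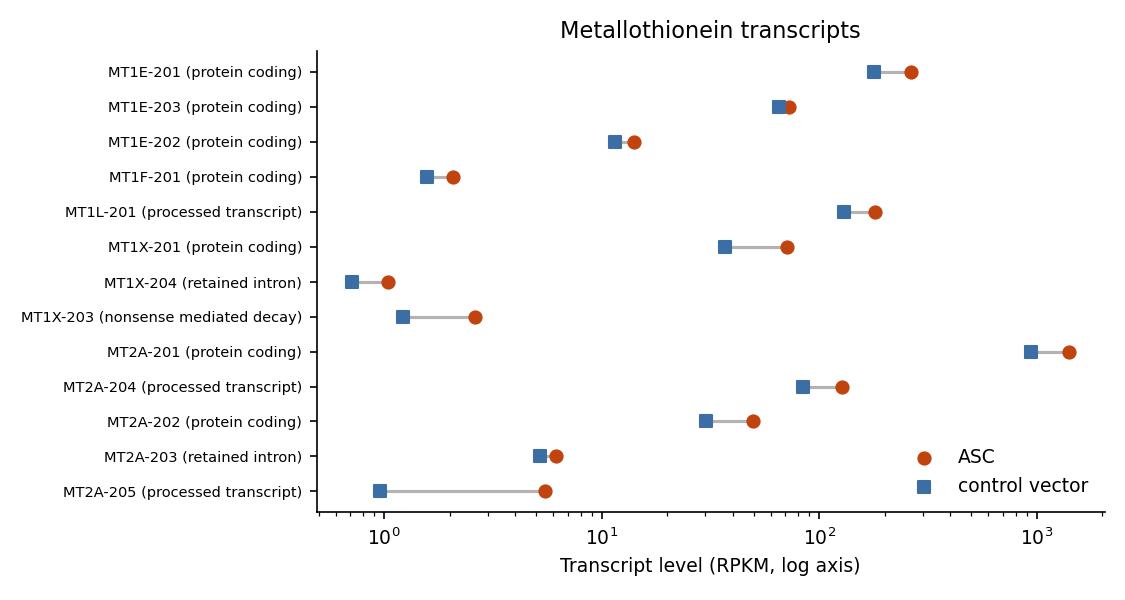
Level in RPKM, on a log axis, of each metallothionein transcript with at least 20 estimated reads in either library, with the ASC library as circles and the control vector library as squares, 1 library each. Every form plotted lies higher in ASC cells, with the smallest fold for MT1E-203 (72.7 RPKM in ASC cells against 65.1 in control cells) and the largest for MT2A-205 (5.46 RPKM in ASC cells against 0.954 in control cells).

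MT1L, a copy in the cluster annotated as a transcribed pseudogene, stood above MT1X and MT1F in RPKM in both libraries. It stood at 180.1 RPKM in ASC cells and 129.6 RPKM in control cells, with 2639 reads in ASC cells, 1906 in control cells and a log2 ratio of 0.47. The log2 ratio of reads was 0.46 (0.38 to 0.55). MT1L aligned with MT1E over 336 columns at 90.5% identity and shared no 50-base stretch with any of the other 6 transcripts compared. Summed, MT1E and MT1L stood at 531.6 RPKM in ASC cells and 384.9 RPKM in control cells, with a log2 ratio of 0.46. With pseudogenes included, the family sum was 2206 RPKM in ASC cells and 1488 RPKM in control cells. Of the 13 other metallothionein genes and pseudogenes listed, 5 had rows, and MT1L alone reached 1 RPKM. MT1B, MT1JP, MT1P1 and MT1P3 had 1, 1, 1 and 1 reads in ASC cells and 1, 0, 0 and 2 in control cells, and the others, MT1A, MT1H, MT1HL1, MT1CP, MT1DP, MT1IP, MT3 and MT4, had no row. The pseudogene MT2P1 on chromosome 4, seen after the lists were written, had 9.02 estimated reads in ASC cells and 5.01 in control cells.

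The metallothionein genes with a row in the cluster lie within 76.0 kb on chromosome 16, so their higher levels were set beside those of their neighbours within 500 kb. Of 22 neighbouring genes and noncoding loci with a row, 11 reached 1 RPKM. Of these 11, 9 lay above 0 and 2 below, where 52.0% of all compared genes lay above 0. The 11 had a range of -0.23 to 0.28 and a median log2 ratio of 0.11, against 0.01 for all compared genes. The neighbours' median was 0.0077 over all 22 with no filter, which adds loci below 1 RPKM whose ratios the pseudocount pulls toward 0. It was 0.05 with the 50 nearest genes subtracted. The 5 compared metallothionein genes of the cluster lay between 0.25 and 0.92. HERPUD1, a gene of endoplasmic reticulum protein disposal, stood at 38.9 RPKM in ASC cells and 31.8 RPKM in control cells. NLRC5, a regulator of MHC class I genes, stood at 5.81 RPKM in ASC cells and 4.61 RPKM in control cells, and both genes had a log2 ratio of 0.28. The noncoding loci RP11-325K4.3 and RP11-325K4.2 overlap each other within HERPUD1, so reads were split between them. RP11-325K4.3 had a log2 ratio of 0.28 and RP11-325K4.2 one of -0.23, while summed they had 64 reads in ASC cells and 67 in control cells, a log2 ratio of reads of -0.07 (-0.59 to 0.44). NUP93, a nuclear pore gene next to the cluster, was level at 42.8 RPKM in ASC cells and 42.6 RPKM in control cells. On subtraction of the median of the 50 nearest compared genes, the log2 ratio of MT1X was 0.86, that of MT2A 0.53 and that of MT1E 0.40.

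**Figure D4:**
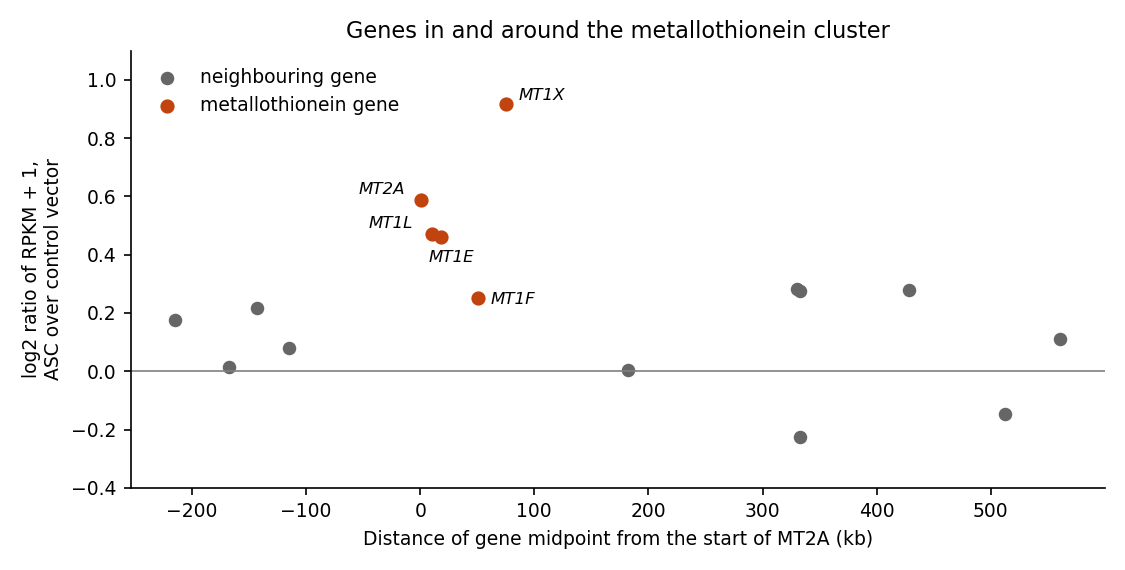
log2 ratio of RPKM + 1, ASC over control vector library (1 library each), against the distance of each gene's midpoint from the start of MT2A in kb, for genes of at least 1 RPKM within 500 kb of the metallothionein cluster. The 5 metallothionein genes lie between 0.25 and 0.92 and the 11 neighbours between -0.23 and 0.28.

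MTF1, SLC30A1 and SLC39A10 differed less between the libraries than MT2A, MT1E and MT1X, in RPKM and in reads. MTF1, whose protein turns on metallothionein genes when zinc binds its zinc fingers, stood at 4.02 RPKM in ASC cells and 3.91 RPKM in control cells, with a log2 ratio of 0.03, which was -0.08 after subtraction of neighbouring genes. Its reads were 1143 in ASC cells and 1033 in control cells, a log2 ratio of 0.14 (0.02 to 0.26). The sum was affected by MTF1-202, a short noncoding form with 0.0230 estimated reads in ASC cells and 4.52 in control cells, which made up 0.306 RPKM of the control level. The coding form MTF1-201 alone stood at 4.02 RPKM in ASC cells and 3.61 RPKM in control cells. MTF1 (ENSG00000188786.9) spans chr1:37809567-37859620 on the minus strand.

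SLC30A1, the plasma membrane zinc exporter and a target of MTF1, had a single transcript row. It stood at 4.49 RPKM in ASC cells and 3.75 RPKM in control cells, with 877 reads in ASC cells and 735 in control cells. In reads the log2 ratio was 0.25 (0.11 to 0.39) and that of RPKM + 1 was 0.21, at rank 2196 of 12471. SLC30A1 (ENSG00000170385.9) spans chr1:211571568-211578742 on the minus strand.

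SLC39A10, the plasma membrane zinc importer, was the member that stood lower in ASC cells. It had 7.87 RPKM in ASC cells and 9.63 RPKM in control cells, with 1190 reads in ASC cells and 1347 in control cells, and a log2 ratio of -0.26 at rank 10890. In reads the log2 ratio was -0.19 (-0.30 to -0.07). Its main coding form, SLC39A10-201, stood at 5.31 RPKM in ASC cells and 5.98 RPKM in control cells, a log2 ratio of -0.14. The short noncoding form SLC39A10-208 stood at 1.03 RPKM in ASC cells (21 reads) and 2.01 RPKM in control cells (41 reads). On these few reads it carried a larger part of the RPKM difference of the sum than SLC39A10-201 did. With protein-coding transcripts only, the log2 ratio of SLC39A10 was -0.15. SLC39A10 (ENSG00000196950.13) spans chr2:195575977-195737702 on the plus strand.

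The other zinc transporters lay on both sides of 0. Of 10 other exporter genes, 5 were compared, 3 above 0 and 2 below, where 52.0% of all compared genes lay above 0. None of the 5 passed 1.5-fold in either direction, where 4.19% of all compared genes did. The median log2 ratio of the 5 was 0.03, against 0.01 for all compared genes. The exporters' median was 0.16 with the highest transcript of each gene in place of the sum and 0.20 with the 50 nearest genes subtracted. SLC30A9, a mitochondrial zinc transporter, stood at 21.0 RPKM in ASC cells and 18.6 RPKM in control cells. SLC30A7, which moves zinc into the secretory pathway, stood at 7.87 RPKM in ASC cells and 6.96 RPKM in control cells. SLC30A5, of the same pathway, stood at 12.3 RPKM in ASC cells and 13.2 RPKM in control cells. Of 13 other importer genes, 10 were compared, 5 above 0 and 5 below, against the same 52.0% of all compared genes above 0. The importers' median was 0.02. None of the importers passed 1.5-fold on the RPKM + 1 scale, where 4.19% of all compared genes did. SLC39A11 was 1.5-fold lower in plain RPKM, where 539 of the 12471 compared genes were. SLC39A14, an importer of zinc and iron induced in inflammation, stood at 37.3 RPKM in ASC cells and 30.97 RPKM in control cells, a log2 ratio of 0.26. SLC39A11 stood at 1.88 RPKM in ASC cells and 2.83 RPKM in control cells, a plain ratio of 0.663 and a log2 ratio of reads of -0.58 (-0.89 to -0.27). SLC39A4, the importer best known for dietary zinc, stood at 15.5 RPKM in ASC cells and 20.9 RPKM in control cells, and both genes had a log2 ratio of -0.41.

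Of 5 genes reported elsewhere as MTF1 targets outside the metallothioneins, 4 were compared and all 4 lay below 0, as did 48.0% of all compared genes. None of the 4 was past 1.5-fold, where 4.19% of all compared genes were. The median log2 ratio of the 4 was -0.19. GCLC, a subunit of the first enzyme of glutathione synthesis, stood at 8.17 RPKM in ASC cells and 11.1 RPKM in control cells. The growth factor gene PGF stood at 1.05 RPKM in ASC cells and 1.54 RPKM in control cells. The selenoprotein gene SELENOH was close, at 65.3 RPKM in ASC cells and 68.9 RPKM in control cells. Its log2 ratio of reads was -0.09 (-0.18 to -0.0010). The selenoprotein gene SELENOW had a log2 ratio of -0.06, and its log2 ratio of reads, -0.12 (-0.24 to 0.01), could not be told from 0 at this depth.

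**Figure D5:**
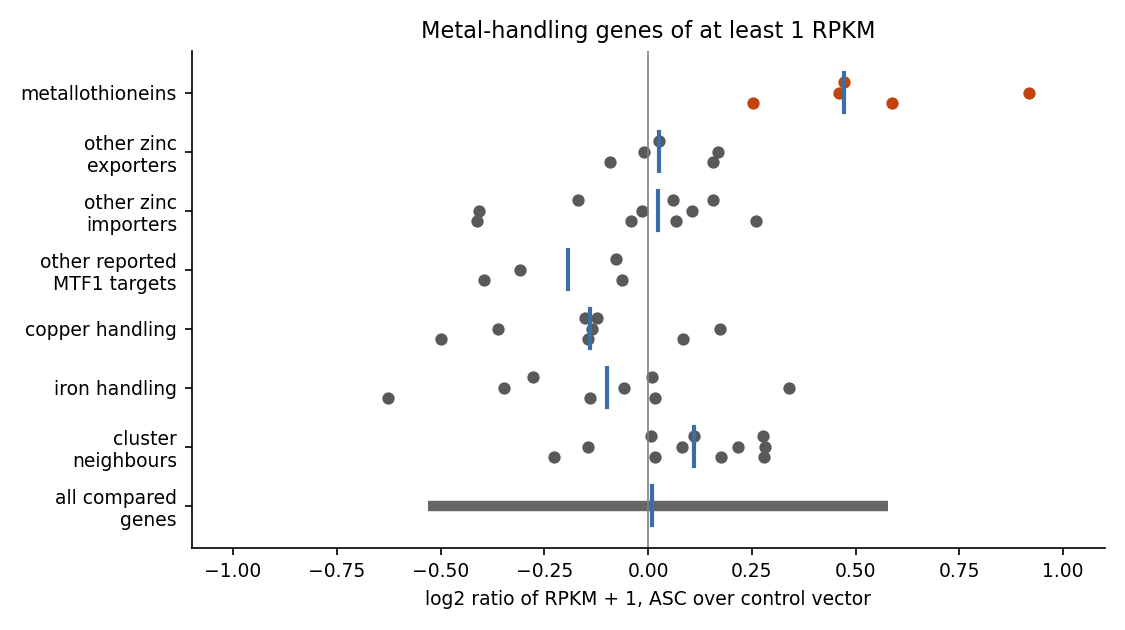
log2 ratio of RPKM + 1, ASC over control vector library (1 library each), of genes of at least 1 RPKM by group, each point 1 gene and each vertical bar the group's median, with the bottom bar giving the central 95% of all compared genes (-0.53 to 0.58). The 5 metallothionein genes, MT1L included, all lie above 0 with a median of 0.47, while the transporter, copper and iron genes lie on both sides of 0.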

How the data were processed

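RNA-seq was measured in 2 libraries of SAS cells, ASC and control vector. PolyA RNA, extracted with TRIzol, was made into libraries with a TruSeq RNA v2 kit, which does not mark strand, per the labels' protocols. Per the file headers the deposited table gives estimated counts of reads per transcript, fractional and not scaled to depth. It also holds RPKM values, deposited per transcript and scaled by length and depth. Per the submitters' processing notes the genome is hg38. Aligner, quantifier, read length and annotation: not given in the sources used here. Transcripts were matched to GENCODE 29 by identifier (99.88%). Printed ends are the stop minus 1, which equalled the annotated end.

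RPKM and estimated counts were summed per gene. Gene names that a spreadsheet had turned into dates (285 rows) were restored for 284 through the identifier. Genes with 1 RPKM or more in one or both libraries were compared by log2 ratio with a pseudocount of 1 RPKM. Each group had 1 library, so there was no test. Estimated counts were rounded for intervals and for TMM. The members, gene lists and alternatives were chosen with earlier results of these data known. Named genes are the members, other metallothioneins with a row, PYCARD, and the 3 compared genes of each list farthest from 0 by log2 ratio. The procedure was tested on simulated data with counting error only, without variation between cultures or reads split between similar copies. Python 3.11.15, pandas 2.3.3, numpy 2.4.6, scipy 1.17.1, Biopython 1.88, matplotlib 3.10.9 and edgeR 4.0.16 were used.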

Additional observations from a re-analysis of the deposited data

How the results depend on the processing

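The higher metallothionein family sum kept its direction under all 11 alternatives, with a log2 ratio between 0.51 and 0.59. The filter settings could not change it, since the sum was taken before the filter. The pseudocounts could hardly do so at this RPKM level. The log2 ratio of the family sum was 0.51 after subtraction of the median of the 50 nearest compared genes and 0.53 without MT2A. MT1X ranged from 0.86 to 0.93, MT2A from 0.53 to 0.59, MT1E from 0.40 to 0.56, MT1F from 0.15 to 0.37, SLC30A1 from 0.13 to 0.25 and SLC39A10 from -0.29 to -0.14 over the alternatives run on each. MTF1 turned round to -0.078 with the neighbours subtracted, and the cause was not tested. The members' median was 0.52 with a filter at 5 RPKM, which left 4 of the 7 members. No member passed 2-fold in any setting, and 2 did at 1.5-fold. Of the 46 other metal-handling genes and cluster neighbours compared in the main setting, none passed 2-fold, where 0.882% of all compared genes did. No alternative took any of them past 2-fold. At 1.5-fold 1 of the 46 passed, where 4.19% of all compared genes did. The median of the other zinc exporters moved from 0.03 to 0.16 and 0.20 under the settings named with it, and the cause was not tested. That of the cluster neighbours moved from 0.11 to 0.0077 with no filter. That setting adds loci below 1 RPKM, whose ratios the pseudocount pulls toward 0. The background of all compared genes past 2-fold was 110, and 287 with a pseudocount of 0.1 (160 higher and 127 lower), 43 with one of 3, 186 with CPM and 523 at 1.5-fold. No paired analysis was possible because each group has 1 library, and no library could be left out. Depth limits MT1F, MT1G and the pseudogenes other than MT1L, which rest on 52 reads or fewer in each library.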

Other observations

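Copper genes lay on both sides of 0. Of 9 listed genes, 8 were compared, 2 above 0 and 6 below, where 48.0% of all compared genes lay below 0. None of the 8 was past 1.5-fold, where 4.19% of all compared genes were. The median log2 ratio of the 8 was -0.14, against 0.01 for all compared genes. COMMD1, a copper trafficking gene, stood at 8.72 RPKM in ASC cells and 12.7 RPKM in control cells, a log2 ratio of -0.50. ATP7B, the copper export ATPase, stood at 1.59 RPKM in ASC cells and 2.33 RPKM in control cells. The copper importer gene SLC31A1 stood at 7.06 RPKM in ASC cells and 6.15 RPKM in control cells.

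Iron genes were mixed. Of 9 listed genes, 8 were compared, 3 above 0 and 5 below, against the same 48.0% of all compared genes, with a median log2 ratio of -0.10. STEAP3, a ferrireductase of iron uptake, was 1.5-fold lower, where 1.81% of all compared genes were, at 18.9 RPKM in ASC cells and 29.8 RPKM in control cells. The ferritin light chain gene FTL stood at 598.0 RPKM in ASC cells and 761.5 RPKM in control cells, a log2 ratio of -0.35. ACO1, which encodes an iron-regulatory protein, stood at 16.4 RPKM in ASC cells and 12.8 RPKM in control cells, with a log2 ratio of 0.34. The iron exporter gene SLC40A1 was too low to compare, with 2 reads in ASC cells and 20 in control cells, and a log2 ratio of reads of -3.33 (-6.47 to -1.29).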
